A study of Mus musculus with 4 samples.

Results

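Small leucine-rich proteoglycans are secreted proteins with a core of leucine-rich repeats, most of which carry glycosaminoglycan chains. They bind collagen fibrils and set the diameter and spacing of the fibrils as these assemble. Bone morphogenetic protein 1, the product of Bmp1, is the procollagen C-proteinase that removes the C-terminal propeptides of fibrillar procollagens so that fibrils can form, and the procollagen C-proteinase enhancers Pcolce and Pcolce2 speed that step. In lung these proteins belong to the interstitial matrix, which fibroblasts and other mesenchymal cells make, and TGF-β is a known regulator of many matrix genes.

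The genes described are 7 leucine-rich proteoglycans (Dcn, Bgn, Aspn, Lum, Fmod, Prelp and Ogn) and 3 genes of procollagen processing (Pcolce, Pcolce2 and Bmp1). These 10 members, of 23787 named genes on the array, were chosen by name, with their values in the comparison of the genotypes already known. Their differences between the genotypes are therefore a description and carry no test. All 10 were among the 16445 genes tested, and the probe that stands for each was well above background on all 4 arrays. The members had 14 probes in all, of which the second probe of Prelp was well above background on 3 arrays.

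The study compared gene expression in lung tumours of CD109+/+ and CD109-/- KP mice, to find genes associated with the lack of CD109, a membrane-anchored protein that binds TGF-β. KP mice are a model in which Cre recombinase starts lung tumours. All mice were of strain C57BL/6J and had received adenoviral Cre recombinase through the trachea 88 to 92 days before the RNA was taken, and the labels do not state their age. Each genotype had 2 arrays: both CD109+/+ samples and CD109-/- replicate 2 came from females, and CD109-/- replicate 1 came from a male. The tumours were profiled whole, so they held tumour and host cells together, and fewer cells of a type cannot be told apart from less RNA per cell. The cell type in which the adenoviral Cre acted is not given, the labels call each sample a replicate of a KP mouse without saying how many tumours were pooled, and p-values measure only the spread between these samples.

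To show the upstream sequence behind the pair of members with the largest differences and the related enhancer gene whose genotypes overlapped, the 250 bases before the start site are given for Ogn, Pcolce2 and Pcolce. They are RefSeq sequences of mouse build GRCm38.p6, written 5′ to 3′ on the gene's own strand. Ogn lies at chr13:49607765-49608014 (plus strand), Pcolce2 at chr9:95637378-95637627 (plus strand) and Pcolce at chr5:137611405-137611654 (minus strand). Capitals mark the motif matches described after them.
Ogn: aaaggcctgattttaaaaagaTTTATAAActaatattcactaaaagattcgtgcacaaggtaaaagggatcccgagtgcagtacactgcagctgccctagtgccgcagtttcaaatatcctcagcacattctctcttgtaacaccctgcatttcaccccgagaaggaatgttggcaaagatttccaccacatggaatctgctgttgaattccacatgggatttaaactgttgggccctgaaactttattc
Pcolce2: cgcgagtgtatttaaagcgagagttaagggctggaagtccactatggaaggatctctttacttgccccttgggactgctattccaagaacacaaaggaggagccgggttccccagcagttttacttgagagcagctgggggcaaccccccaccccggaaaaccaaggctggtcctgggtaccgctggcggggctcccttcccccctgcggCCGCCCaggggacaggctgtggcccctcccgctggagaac
Pcolce: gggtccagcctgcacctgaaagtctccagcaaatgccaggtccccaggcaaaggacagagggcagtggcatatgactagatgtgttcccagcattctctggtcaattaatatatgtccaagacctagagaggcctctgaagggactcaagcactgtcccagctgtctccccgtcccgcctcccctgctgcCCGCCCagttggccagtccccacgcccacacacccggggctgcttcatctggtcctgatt

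Such entries were matched for 7 of the 10 members, Bgn, Aspn, Fmod, Prelp, Ogn, Pcolce and Pcolce2. Motifs were searched on both strands of the same window in 32851 promoters. The letters TATAAA, the core of a TATA box, occurred in 12.4% of them, and among the members in Ogn and Aspn, with 2 matches each. The pair of matches in Ogn overlapped on opposite strands, starting at positions -229 and -227 counted from the start site. The SMAD box, taken as CAGAC, occurred in 42.2% of all promoters, and among the members in Fmod, with 2 matches, and Prelp, with 1 match at position -161. The GC box, taken as GGGCGG, occurred in 32.7% of all promoters and in Bgn, Pcolce and Pcolce2. Bgn had 3 matches, Pcolce 1 at position -60 and Pcolce2 1 at position -40. The pair of enhancer genes thus each held 1 GC box and no match to the other motifs in this window, although their array values differed in pattern as described below. A match is a description of letters and not of a bound site.

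Values are log2 of the array's processed signal relative to its 75th percentile, so that 0 stands for a probe at that percentile, and differences are CD109-/- minus CD109+/+ with the standard error (SE) of the limma fit. The 4 arrays were alike in brightness, with 75th percentiles of 557 to 688 intensity units and 64.3% to 67.0% of spots well above background, and no spot was saturated. All lay on 1 slide and were scanned on 1 day. The targeted gene followed the labels: Cd109 read -3.70 and -4.66 in CD109+/+ and was not well above background in either CD109-/- array. Levels of different probes are not compared, since probes differ in brightness for the same amount of RNA.

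Across the members, 9 of 10 had a higher mean in CD109-/- tumours and 1, Bmp1, had a lower mean. Both CD109-/- values lay above both CD109+/+ values for 7 of the 10, against 20.3% of the 16445 genes, and both lay below for 1, against 18.2%. Differences of at least 1 on the log2 scale were found upward for 4 members, Ogn, Pcolce2, Lum and Prelp, against 4.03% of all genes. They were found downward for 0 members, against 2.49% of all genes. The median difference was 0.73 over the members and 0.0030 over all genes. As this contrast was known when the members were chosen, nothing is read from these shares. In limma's fit over all 16445 genes, 0% passed a Benjamini-Hochberg adjusted p of 0.05 (0 genes), the lowest adjusted p was 0.264, and 1220 genes had a raw p under 0.05 before adjustment. No member passed. For any one gene, exact permutation of 2 arrays against 2 gives a two-sided p of 0.33 at the lowest.

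**Figure D1:**
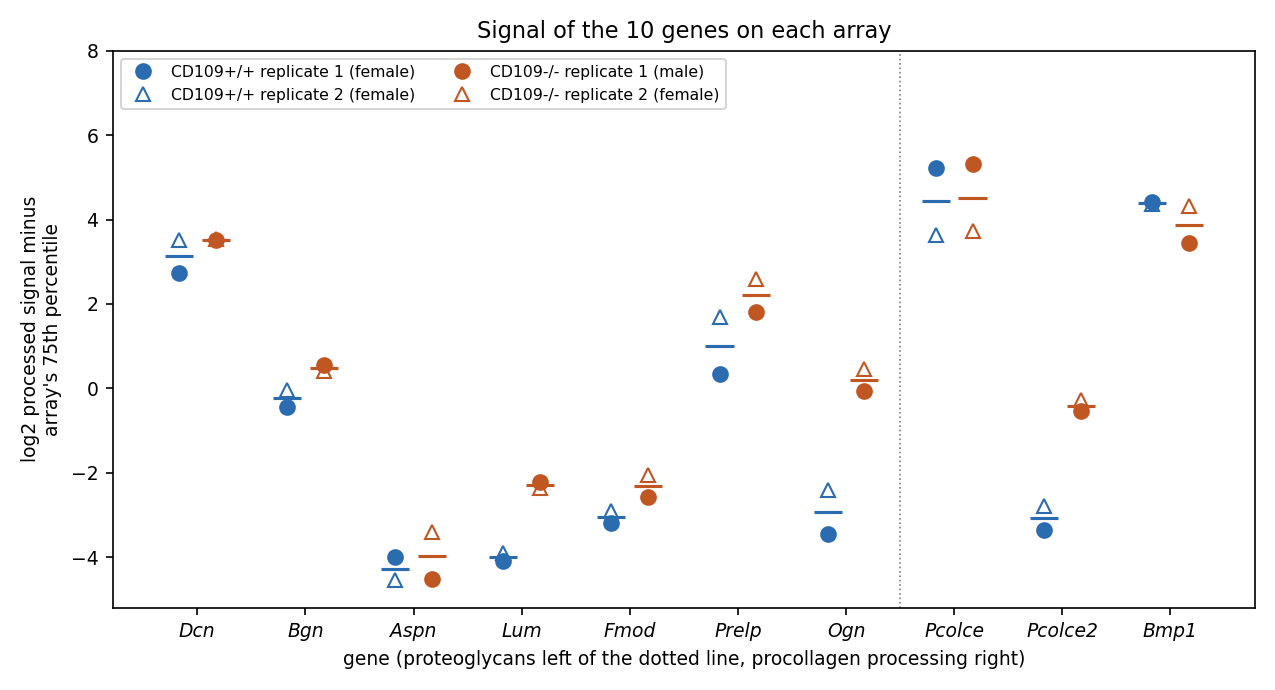
Log2 signal relative to the 75th percentile of each array (vertical axis) for the 10 genes (horizontal axis), with blue symbols for CD109+/+, orange ones for CD109-/-, filled circles for replicate 1, open triangles for replicate 2 and bars at the means of 2 arrays. Ogn, Pcolce2 and Lum show the widest empty space between the genotypes, while the points of Pcolce split by replicate number in both genotypes.

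Decorin (Dcn), a class I proteoglycan, binds collagen and is among the members that also bind TGF-β. Dcn read 2.73 and 3.52 in CD109+/+ and 3.52 and 3.53 in CD109-/- tumours. CD109+/+ replicate 1 was the low array, and CD109+/+ replicate 2 lay just below the CD109-/- arrays, by 0.00056. The means were 3.13 ± 0.56 and 3.53 ± 0.0043 (SD, n = 2), a difference of 0.40 ± 0.33 (SE), which shrank to 0.0036 when CD109+/+ replicate 1 was left out and was 0.79 when the other CD109+/+ array was.

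Biglycan (Bgn), a close relative of decorin whose gene is on the X chromosome, read -0.44 and -0.04 in CD109+/+ and 0.55 and 0.41 in CD109-/- tumours. Both CD109-/- arrays lay above both CD109+/+ arrays, by at least 0.45. The difference was 0.72 ± 0.25 (SE), or 1.65-fold, and with females alone (2 CD109+/+ arrays against 1) it was 0.65.

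Asporin (Aspn), a class I member with an aspartate-rich stretch, read -4.001 and -4.54 in CD109+/+ and -4.51 and -3.41 in CD109-/- tumours. The genotypes overlapped, and only CD109-/- replicate 2 was high. The difference of 0.31 ± 0.45 (SE) was smaller than its error, and with 1 array left out it ran from -0.24 (without CD109-/- replicate 2) to 0.86 (without CD109-/- replicate 1). It was -0.0041 with the normexp background correction, an alternative that starts from the median spot and background signals in place of the processed signal and adds a constant.

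Lumican (Lum), a class II keratan sulfate proteoglycan needed for regular collagen fibrils in the cornea, read -4.10 and -3.89 in CD109+/+ and -2.21 and -2.36 in CD109-/- tumours. On the linear scale its processed signal was 32.5 and 45.0 against 147 and 134 intensity units. Both CD109-/- arrays stood well apart from both CD109+/+ arrays, and the SDs within the genotypes were 0.15 and 0.11. The difference was 1.71 ± 0.22 (SE), or 3.28-fold. It was 0.80 with the normexp correction.

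Fibromodulin (Fmod), the class II member that shares a collagen-binding region with lumican, read -3.19 and -2.92 in CD109+/+ and -2.57 and -2.06 in CD109-/- tumours. The genotypes did not overlap, with 0.35 between the nearest arrays. The difference was 0.74 ± 0.28 (SE), 0.48 without CD109-/- replicate 2 and 0.44 with the normexp correction.

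Prelp, a class II member of basement membranes and connective tissue, read 0.34 and 1.69 in CD109+/+ and 1.81 and 2.60 in CD109-/- tumours. The CD109+/+ arrays were farther from each other than CD109+/+ replicate 2 was from CD109-/- replicate 1, a gap of 0.13. The difference was 1.19 ± 0.56 (SE), or 2.29-fold, and leaving out CD109+/+ replicate 1 gave 0.52, while leaving out CD109+/+ replicate 2 gave 1.87. A second, much dimmer probe read -5.68, -4.70, -5.00 and -3.96 over the same arrays, a difference of 0.71 with overlap of the genotypes. It was 0.08 with the normexp correction.

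Osteoglycin (Ogn, also called mimecan), the class III member, had the largest difference of the 10. It read -3.46 and -2.40 in CD109+/+, as opposed to -0.06 and 0.46 in CD109-/- tumours, which are processed signals of 50.6 and 127 against 648 and 946 intensity units. Every CD109-/- array exceeded every CD109+/+ array by at least 2.33, while replicates within a genotype lay up to 1.06 apart. The means were -2.93 ± 0.75 and 0.20 ± 0.37 (SD, n = 2), a difference of 3.13 ± 0.44 (SE), or 8.73-fold. By size of difference Ogn stood 22nd of the 16445 genes. Leaving out any 1 array gave 2.60 to 3.66, and the normexp correction gave 2.44.

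Pcolce2, the second procollagen C-proteinase enhancer, had the next largest difference. It read -3.35 and -2.78 in CD109+/+ and -0.54 and -0.29 in CD109-/- tumours, or 54.5 and 97.5 against 467 and 564 intensity units. Both CD109-/- arrays were above both CD109+/+ arrays, by at least 2.24. The means were -3.07 ± 0.41 and -0.41 ± 0.18 (SD, n = 2), a difference of 2.65 ± 0.29 (SE), or 6.30-fold, and Pcolce2 ranked 52 by size of difference. Leaving out any 1 array gave 2.37 to 2.94, and the normexp correction gave 1.97.

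Pcolce, the first enhancer, showed another pattern. Its values were 5.23 and 3.63 in CD109+/+ and 5.31 and 3.72 in CD109-/- tumours, so replicate 1 was high and replicate 2 low in both genotypes. Replicate 1 exceeded replicate 2 by 1.60 in CD109+/+ and by 1.59 in CD109-/-, and the difference between the genotypes was 0.08 ± 0.77 (SE). Without CD109+/+ replicate 2 the difference was -0.72, without CD109-/- replicate 1 it was -0.71, and without either of the other arrays it was 0.88.

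The probe behind these values was printed in 10 spots on each array, and the spots of 1 array had an SD of 0.07 to 0.11. A second probe of Pcolce, with 8 to 10 usable spots an array, read 4.89, 3.33, 4.94 and 3.38, with the same gap of 1.56 between replicates in each genotype. The gap between replicates was thus far wider than the spread between spots and appeared with both probes. Of the 16445 genes tested, 94 others had replicate 1 above replicate 2 by at least as much in both genotypes. The replicate number is all that the labels give in common to these arrays.

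**Figure D2:**
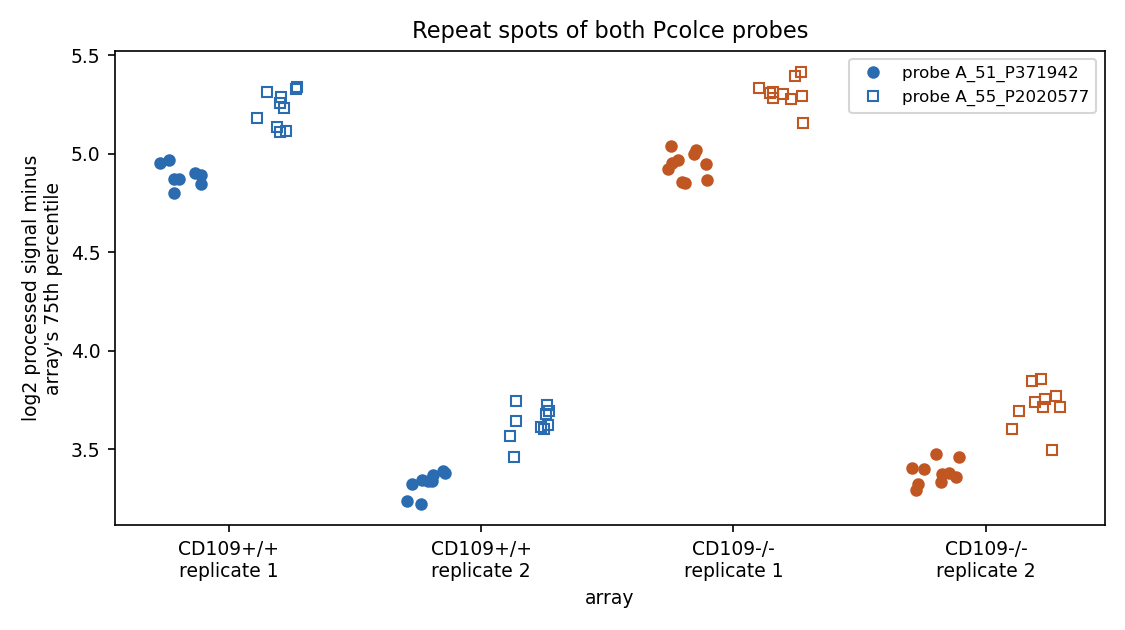
Log2 signal of the single spots of both Pcolce probes (vertical axis) on each of the 4 arrays (horizontal axis), with filled circles for 1 probe and open squares for the other, a symbol for each spot. The spots of 1 array lie close together, and replicate 1 lies about 1.6 above replicate 2 in both genotypes for both probes.

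Bmp1, the C-proteinase itself, was the member with a lower mean in CD109-/- tumours. Its brightest probe read 4.42 and 4.38 in CD109+/+ and 3.44 and 4.33 in CD109-/- tumours. CD109-/- replicate 1 alone was low, and CD109-/- replicate 2 lay next to the CD109+/+ arrays. The difference was -0.51 ± 0.36 (SE), and it was -0.07 without CD109-/- replicate 1, the male sample, and -0.96 without CD109-/- replicate 2.

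Another probe of Bmp1 read 0.26, 0.20, -0.08 and 0.09, a difference of -0.22 without overlap, and the third read 0.67, -0.14, -0.01 and -0.23, a difference of -0.39 with overlap. All 3 probes thus had lower means in CD109-/-. The third is matched to a non-coding transcript record of Bmp1, unlike the other probes. Its difference was 0.02 without CD109+/+ replicate 1. The gene next to Bmp1 is Sftpc, the surfactant protein of alveolar type II cells, which read 9.11, 8.96, 8.92 and 8.79, and whether the array signals of these neighbours bear on each other was not tested.

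**Figure D3:**
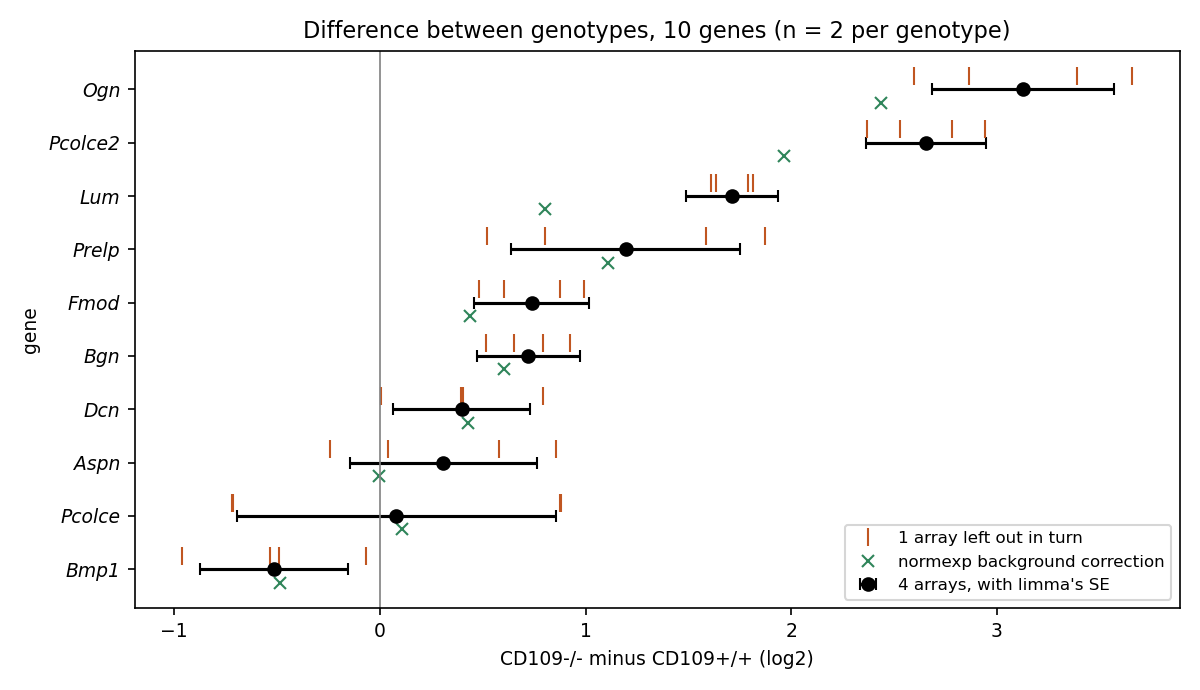
Difference between the genotypes, CD109-/- minus CD109+/+ on the log2 scale (horizontal axis), for each of the 10 genes (vertical axis), with bars of 1 SE from limma, ticks for the values with each array left out and crosses for the normexp background correction. Ogn at 3.13, Pcolce2 at 2.65 and Lum at 1.71 lie farthest above 0, and Bmp1 at -0.51 lies below it.

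Since 1 of the CD109-/- samples was male, the members were also set side by side in females alone, 2 CD109+/+ arrays and CD109-/- replicate 2. There is no replicate of the CD109-/- genotype in that comparison. The differences were 3.39 for Ogn (3.13 with the male sample), 2.78 for Pcolce2 (2.65), 1.63 for Lum (1.71) and 1.59 for Prelp (1.19). They were 0.99 for Fmod (0.74), 0.86 for Aspn (0.31), 0.65 for Bgn (0.72) and 0.40 for Dcn (0.40). Pcolce stood at -0.71 (0.08) and Bmp1 at -0.07 (-0.51).

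Several of the proteoglycan genes are neighbours in the genome. In the RefSeq gene order of assembly GRCm38.p6, Dcn is followed by Lum and then by Kera, Prelp lies between Optc and Fmod, and Ecm2, Aspn, Omd and Ogn follow each other. Neighbouring members had unequal differences: Dcn 0.40 beside Lum 1.71, Prelp 1.19 beside Fmod 0.74, and Aspn 0.31 near Ogn 3.13. Ecm2, at the other end of the Ogn cluster, differed by 0.83. Kera, Optc and Omd failed the background criterion in both genotypes and were not tested.

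Other leucine-rich proteoglycans were measured for 6 of 11 genes, with 3 higher and 1 lower in CD109-/- without overlap and a median difference of 0.47. Over all genes tested, 20.3% were higher and 18.2% lower without overlap. These shares stand beside the counts of every list that follows, and nothing is read from such counts. The one named by the rule was podocan (Podn), a class V member that binds collagen, with -2.50 and -1.77 in CD109+/+ and -0.51 and -0.12 in CD109-/- tumours. Its CD109-/- arrays both lay above its CD109+/+ arrays, a difference of 1.82 ± 0.34 (SE). Chondroadherin (Chad) differed by 0.41 and tsukushi (Tsku) by -0.26, both without overlap.

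Among procollagen proteinases and their partners, 7 of 11 genes were tested, and the median difference was 0.30. Without overlap, 2 were higher (20.3% of all genes) and 0 lower (18.2%). Sfrp2, a secreted Wnt-binding protein reported to act on procollagen processing, was not well above background in CD109+/+. It was 2.33-fold higher in CD109-/- tumours with CD109+/+ set at a floor, while its normexp difference was 0.35 (log2). The floor of each CD109+/+ array is the signal of its dimmest probe above background or of the probe itself, whichever is larger. It is not the detection limit of the Sfrp2 probe, so the fold is not a lower limit. Adamts2, the procollagen N-proteinase, differed by 0.73 ± 0.25 (SE). Tll1, a proteinase related to Bmp1, differed by 0.18 with overlap. Fbln1, which lacks a value on CD109-/- replicate 2 because its spot carried an outlier mark, differed by 2.00 on the remaining arrays.

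The list of fibrillar procollagens, cross-linking enzymes and other collagen biosynthesis genes had a median difference of 0.29. Without overlap, 8 of 17 tested genes were higher (20.3% of all genes) and 0 lower (18.2%). Col3a1, the chain of type III collagen, read 2.30 and 2.15 in CD109+/+ and 3.58 and 3.41 in CD109-/- tumours, a difference of 1.27 ± 0.22 (SE). Lox, the lysyl oxidase that starts collagen cross-linking, differed by 1.08 ± 0.28 (SE), and Col2a1, the chain of cartilage collagen, by 1.02 ± 0.21 (SE). The chains of type I collagen differed from each other: Col1a2 by 0.79 without overlap and Col1a1 by 0.06 with overlap.

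Enzymes that build the glycosaminoglycan chains had small differences, with a median of 0.12 over 21 tested. Without overlap, 6 were higher (20.3% of all genes) and 2 lower (18.2%), and none differed by 1 or more without overlap. Of the receptors that decorin or biglycan bind, 3 of 7 were higher without overlap (20.3% of all genes), with a median of 0.39. Egfr, the epidermal growth factor receptor, which decorin binds, differed by 1.37 ± 0.58 (SE), and its CD109-/- values of -0.30 and -1.92 lay far apart. The Egfr difference was 0.56 without CD109-/- replicate 1, the male sample, and 2.17 without CD109-/- replicate 2. Tlr2, an innate immune receptor that biglycan binds, differed by 1.20 ± 0.31 (SE).

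Other secreted proteoglycans had a median difference of -0.30 over 8 tested genes. Without overlap, 2 were higher (20.3% of all genes) and 1 lower (18.2%). Srgn, the proteoglycan of blood cell granules, differed by 1.22 ± 0.43 (SE), or 0.66 without CD109-/- replicate 1, and Spock2, a testican, by 1.10 ± 0.26 (SE). Prg4, lubricin, had the difference of largest size in that list at -1.53, with overlap. No gene of these lists passed the adjusted threshold either.

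**Figure D4:**
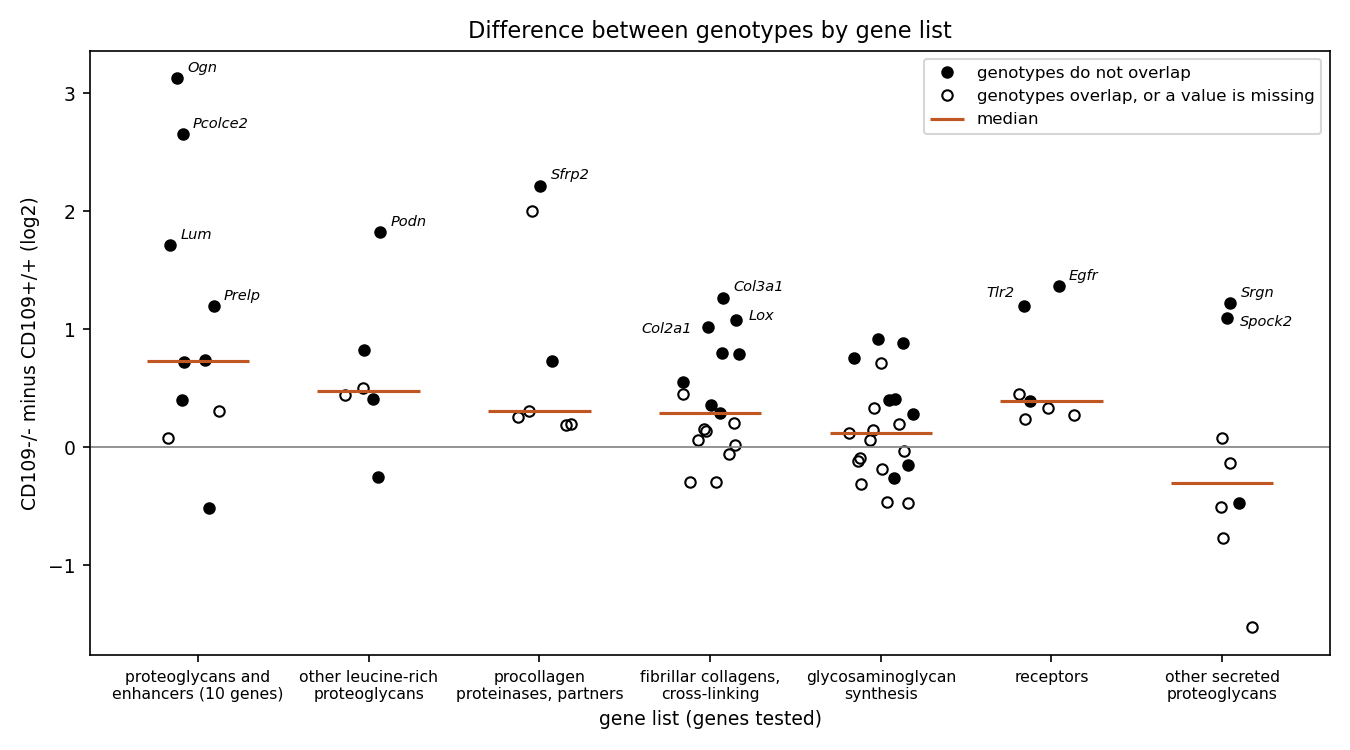
Difference between the genotypes, CD109-/- minus CD109+/+ on the log2 scale (vertical axis), for each tested gene of 7 gene lists (horizontal axis), filled where the genotypes do not overlap, with a bar at each list's median. The medians run from 0.73 for the proteoglycans and enhancers to -0.30 for the other secreted proteoglycans.

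Markers of the cells that could make these proteins differed in part. Beside each count of markers stand the shares over all genes, 20.3% higher and 18.2% lower without overlap. Of the fibroblast markers, 4 of 7 were higher without overlap and 0 lower, with a median difference of 1.21. Pdgfra differed by 1.77, Col13a1 by 1.67 (0.61 with normexp), Tcf21 by 1.53 and Meox2 by 1.21. The other 3 overlapped, Pdgfrb at 0.01, Thy1 at 0.39 and Col14a1 at 1.16. Summed on the linear scale relative to the 75th percentile, the list stood at 3.43 to 4.80 in CD109+/+ and 4.48 to 6.83 in CD109-/- tumours. Such a sum is weighted towards the brightest probes. Here it was carried mostly by Thy1 and Pdgfrb, whose genotypes overlapped. Of the adventitial fibroblast markers, 2 of 6 were higher without overlap, Pi16 by 1.95 and Dpt by 3.54 (0.91 with normexp), and the list's median difference was 0.28. The other 4 overlapped, from -0.99 for Sfrp4 to 0.38 for Ly6a. Dpt and Tcf21 each passed the background criterion on only 1 array of the CD109+/+ genotype. The summed level of the adventitial list was 20.1 to 26.9 and 26.5 to 30.9, carried mostly by Cd34 and Ly6a, whose genotypes overlapped. The part of fibroblasts in the members' differences was not tested.

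Of the mesothelial markers, 4 of 6 were higher without overlap, with a median difference of 1.32. It was 0.86 with genes below background set at the floor described for Sfrp2. Wt1 was not well above background in CD109+/+ and was 3.95-fold higher against that floor, which is not a lower limit. Upk3b, above background on 1 of the CD109+/+ arrays, differed by 2.21. With normexp the differences were 0.59 for Wt1 and 0.63 for Upk3b. The summed level was 26.8 to 105 in CD109+/+ and 21.1 to 80.4 in CD109-/- tumours, and it was carried by Msln and Krt19. These were high in replicate 1 of both genotypes, as Pcolce was: Msln read 6.05, 3.35, 5.46 and 2.98, and Krt19 read 5.28, 4.04, 5.17 and 3.68. Msln and Krt19 thus split by replicate number, while the genotypes of the others did not overlap. For Upk1b and Lrrn4 the nearest arrays of the genotypes lay closer than replicates within a genotype. Upk1b read -4.08 and -3.90 in CD109+/+ and -3.78 and -2.51 in CD109-/- tumours. Lrrn4 read -7.47 and -5.69 against -5.46 and -4.11, and was not well above background on either CD109+/+ array. Which cells gave the Msln and Krt19 signal was not tested, nor was the part of mesothelial cells in the members' differences.

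Smooth muscle and pericyte markers were higher without overlap for 5 of 7, with a median of 0.60. Cnn1 differed by 1.13 without overlap, while Acta2 at -0.17 and Cspg4 at -0.05 overlapped. Their summed levels were 14.9 to 18.4 against 17.7 to 24.1, carried mostly by Acta2 and Tagln. Macrophage markers were higher without overlap for 4 of 5, with a median of 0.54 and summed levels of 19.3 to 24.5 against 30.4 to 35.2. Mrc1 differed by 1.21 and Adgre1 by 0.94, both without overlap, while Marco overlapped at 0.54. Endothelial markers were higher without overlap for 3 of 5, with a median of 0.37 and levels of 5.94 to 6.09 against 6.56 to 9.33. Tek differed by 0.93 without overlap, while Cdh5 at 0.22 and Kdr at 0.24 overlapped. Epithelial markers, the defining ones for these tumours, were present on all arrays at 814 to 899 against 725 to 839, with 1 of 6 higher and 2 lower and a median of -0.09. That sum was carried mostly by Sftpc and Sftpb. Cartilage and fat are other places where these proteoglycans abound. Of the cartilage markers, Acan, Cnmd, Col9a1, Matn1 and Matn3 were not well above background. The 3 others summed to 0.53 to 0.55 against 0.85 to 0.90, a sum carried mostly by Col2a1, with a median difference of -0.22. Col2a1 was higher by 1.02 and Hapln1 was lower, at -0.73, both without overlap, while Comp overlapped at -0.22. Of the adipocyte markers, Adipoq, Plin1 and Cfd were not well above background. The 3 others summed to 2.83 to 3.39 against 4.52 to 5.32, a sum carried by Fabp4. Fabp4 was higher by 0.80 and Lep was lower, at -0.35, both without overlap, while Cidec overlapped at 1.00. The part of these cells in the result was not tested.

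**Figure D5:**
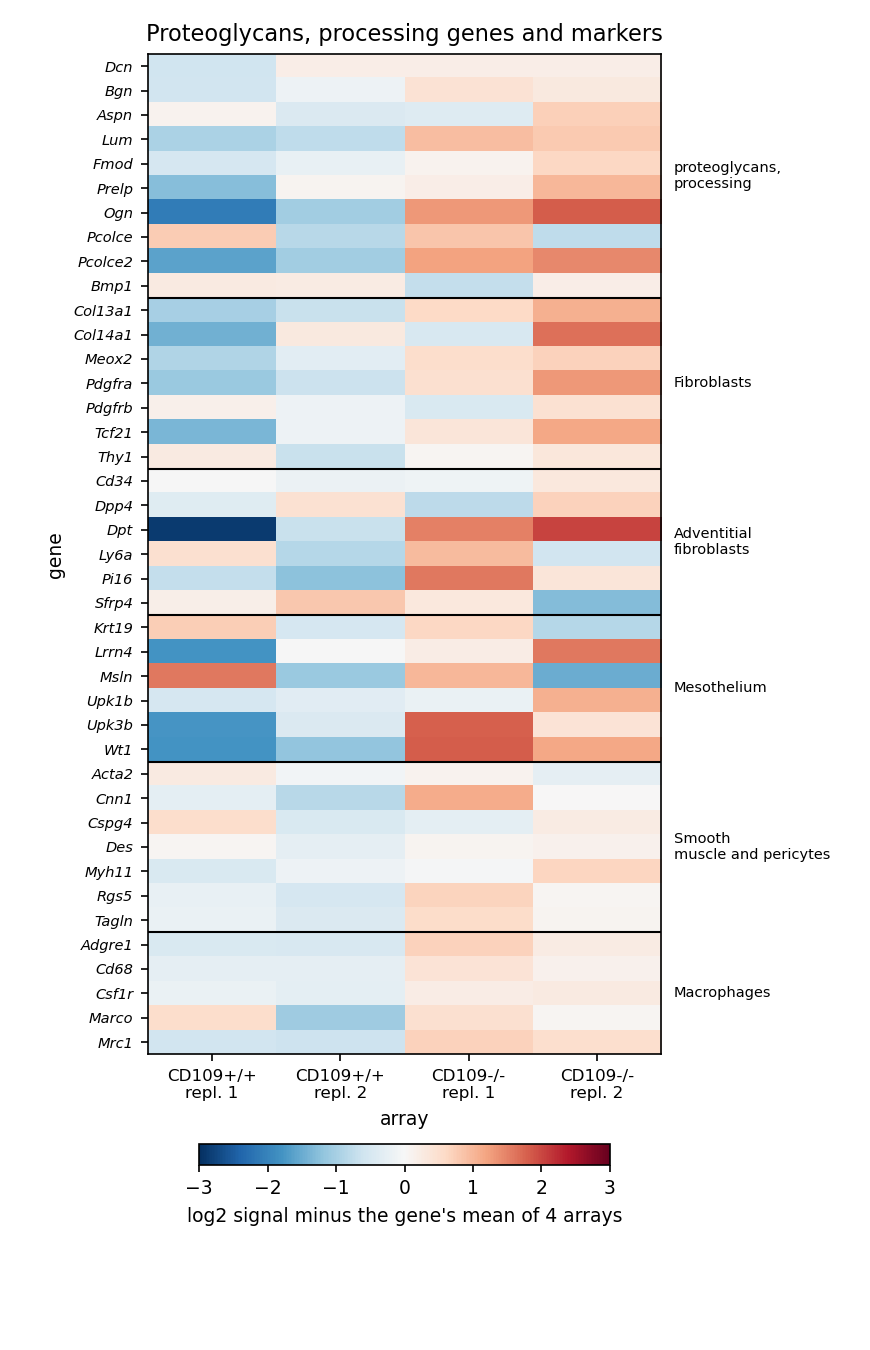
Log2 signal minus the gene's mean of the 4 arrays (colour, blue low and red high) for the 10 genes and 5 lists of cell type markers (rows) on each array (columns). Ogn, Pcolce2 and Lum share the blue to red step between the genotypes with Pdgfra, Col13a1, Dpt and Wt1, and in paler colours with Mrc1 and Adgre1. Other markers of these lists, such as Pdgfrb, Dpp4, Sfrp4 and Msln, do not show it. Dpt was well above background on only 1 CD109+/+ array and Wt1 on neither. Pcolce shares the alternation by replicate with Msln and Krt19.

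The genes with the pattern most like a member were taken as those with the smallest root mean square difference of the 4 centred values, over 4 arrays. For Ogn these were Chrdl1 (0.23), Cd163 (0.27), Ccl19 (0.27), Plcxd3 (0.30) and Gabra3 (0.30). For Pcolce2 they were Cd163 (0.13), Lrat (0.15), Plcxd3 (0.18), Olfml1 (0.25) and Bnc2 (0.26). All 8 of these genes were not well above background on at least 1 of the CD109+/+ arrays. Among the 15647 genes well above background on all 4 arrays, a restriction added after the data were seen, Pcolce2 was the gene most like Ogn, at 0.31. After it came Cyp4b1 (0.40), Tbx1 (0.49), Jchain (0.50) and Hhip (0.54). For Pcolce2 the genes were Ccl8 (0.26), Cyp4b1 (0.26), Cyp2b9 (0.29), Ogn (0.31) and Xlr4a (0.31).

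Of the other members, Lum was the nearest to both, at 0.81 from Ogn and 0.51 from Pcolce2. Pcolce was the farthest from both, at 1.94 and 1.63. With 4 arrays, this measure includes the step between the genotypes on which the members were known to differ.

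The leucine-rich members together had 6 of 7 higher without overlap (20.3% of all genes) and 3 higher by at least 1 (4.03% of all genes), and nothing is read from these counts, as the members were chosen with the values known. Their median value after centring each gene was -0.60 and -0.23 in the CD109+/+ arrays and 0.20 and 0.70 in the CD109-/- arrays.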

How the data were processed

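Total RNA (100 ng a sample, Cy3) was put on 1-colour Agilent arrays, per the labels. The deposited scanner files hold linear intensity values made with Agilent Feature Extraction 12.1.0.3, per the file headers, whose processed signal is background-subtracted and detrended. The authors' value table of the same arrays equalled that intensity times a constant for each array (1.19, 1.21, 1.04 and 1.08), on a linear and uncentred scale with column medians of 58.8, 76.1, 59.5 and 69.2, and how the constants were set is not stated. It served as an alternative.

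Outlier spots (58 to 73 an array) were left out, spots of a probe averaged, and values taken as log2 minus each array's 75th percentile. A probe was tested when at least 50% of its spots were well above background on both arrays of a genotype (35777 of 56605 probes). Probes were named by accession through a RefSeq table of GRCm38.p6 (34566 with a symbol, 22039 without). The array design uses another build, so coordinates of that table were used only for the order of neighbouring genes and not to place probes. A gene was its tested probe with the highest mean. Genotypes were compared over all genes with limma 3.58.1 in R 4.3.3, two-sided, with Benjamini-Hochberg adjustment and 2 residual degrees of freedom, checked on simulated data.

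Members and lists were chosen with earlier results of these data known. Named were all members and, from each list, up to 4 genes that differ by at least 1 without overlap; for the 2 members with the largest differences, the 5 genes most like them; and Cd109. Other genes of the lists were named after their values were seen. The number of arrays limits the precision.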

Additional observations from a re-analysis of the deposited data

How the results depend on the processing

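Over 14 alternative settings (background correction, normalization, source of the values, filter, probe rule, variance trend, replicate block, sex, and each array left out), limma called 0 genes in every one. The count of genes was 1220 at an unadjusted p under 0.05 in place of the adjusted one, by construction of a looser threshold. The members higher without overlap ranged from 5 of 10 with the authors' table (16.2% of all genes in that setting) to 9 without CD109+/+ replicate 1 (34% of all genes, since 3 arrays separate more easily), and the median difference of the members from 0.52 with the normexp correction to 0.93 with sex as a covariate. Among the members, 4 differences moved by more than 1 SD, all with normexp: Lum 0.80, Fmod 0.44, Ogn 2.44 and Pcolce2 1.97, and so did 10 differences of other named genes. Normexp changed the input signals and added an offset of 50 intensity units to every value before the log. Which of these moved the differences was not tested. A move of 1 SD cannot be exceeded by leaving out 1 of 2 arrays, so those settings are given by their values and not by such a count. The sign changed for Aspn (-0.0041 with normexp, -0.24 without CD109-/- replicate 2) and for Pcolce (-0.71 without CD109-/- replicate 1, which is the same fit as sex as a covariate, -0.72 without CD109+/+ replicate 2). The replicate block called 0 genes (1220 at an unadjusted p under 0.05 without it, 1899 with it). In this balanced design it cannot change a difference, so the members' median of 0.73 with it is fixed by construction. The labels give no more than a shared number for such a pairing: the correlation of replicate 1 minus replicate 2 between the genotypes was 0.36 across 16439 genes, which are not independent replicates. Signal over background limits the dim probes: the lowest array values of Aspn, Lum, Fmod, Ogn and Pcolce2 were 28.8, 32.5, 61.1, 50.6 and 54.5 intensity units.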

Other observations

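The pattern of Pcolce, chosen after its values were seen, was closest to that of Lpar1, a lysophosphatidic acid receptor (root mean square difference 0.09), Tnfrsf9, a costimulatory receptor of T cells (0.09), Krt7, a keratin of simple epithelia (0.11), 2500002B13Rik (0.11) and Cebpe, a granulocyte transcription factor (0.11). Krt7 read 5.21 and 3.76 in CD109+/+ and 5.14 and 3.70 in CD109-/- tumours. Lpar1 read -2.36 and -3.82 in CD109+/+ and -2.16 and -3.96 in CD109-/- tumours.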
